A study of Mus musculus with 3 samples.

Results

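The levels of 10 genes of the S100, annexin and galectin families and of vimentin were measured in activated mouse T cells: the S100 genes S100a4, S100a6, S100a10 and S100a11, the annexins Anxa1, Anxa2 and Anxa5, the galectins Lgals1 and Lgals3, and Vim, which encodes vimentin. They were taken by symbol from the deposited table, and all 10 were among its 17796 genes. T cells from spleens of C57BL/6 mice were cultured for 3 days on plate-bound antibodies against CD3 (2 ug/ml) and CD28 (5 ug/ml) with interleukin 2 (100 IU/ml), and polyA RNA was sequenced. The aged fumarate library (labelled Old + Fumarate) came from mice with a stated age of 24 months given fumarate at 10 mg/kg, 3 times a week for 2 months, with no stated age at collection. The aged vehicle library (labelled Old) came from mice of the same stated age given vehicle on that schedule, and the young library (labelled Young) from mice aged 2 months, labelled vehicle with no stated course. No genotype other than C57BL/6 is given, culture and activation were the same for all groups, and it is not stated whether animals were pooled. Each group is 1 library, so differences between groups could not be set against a spread between replicates and carry no p-value.

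S100 proteins are small calcium-binding proteins of the EF-hand kind that dimerise and bind target proteins. Annexins bind membranes rich in acidic phospholipids when calcium rises, and some of them pair with an S100 dimer: S100A10 with annexin A2, and S100A11 with annexin A1. Galectins bind galactose-containing sugars on glycoproteins and can cross-link receptors at the T cell surface, and vimentin is the main intermediate filament of lymphocytes. In T cells several of these genes are known to be more highly expressed in effector and memory cells than in naive cells.

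Levels are given in CPM, where the values of a library add up to 1000000. From the spacing of low values, depth was estimated at 13.8, 17.3 and 41.0 M reads (1 M is 1000000) in the aged fumarate, aged vehicle and young libraries. A gene is called higher or lower where the ratio of CPM + 1 was at least 1.5-fold. Only genes with a mean of at least 1 CPM over the pair of libraries were tested. All 10 genes passed that minimum in all 3 comparisons. A gene nearly absent from 1 library of a pair can pass only through the other library, and can then only be called higher there. This held for Anxa1 against young, at 0.244 CPM in the young library, and for some genes of the lists below. Fold values below are plain CPM ratios, and their 95% intervals (Clopper-Pearson, on estimated reads) cover counting error alone. T cell markers were high in all libraries, with a sum over 15 genes of 5277 CPM in the aged fumarate, 4262 CPM in the aged vehicle and 4818 CPM in the young library. Markers of other blood lineages stood apart in the aged vehicle library: the 10 megakaryocyte and platelet markers summed to 190.1, 1344 and 12.1 CPM in the aged fumarate, aged vehicle and young libraries. Since these are bulk libraries, fewer cells of a type and less RNA per cell cannot be told apart.

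The 250 bases before the RefSeq start of 5 of the genes are shown, because these genes bracket the patterns below: S100a4, S100a6 and Anxa1 were the members lower in the aged fumarate than in the aged vehicle library, Anxa2 the member that was higher, and Vim a highly expressed member that lay within 1.5-fold. They were chosen after their values were seen. Sequences are from RefSeq on the build GRCm38.p6, at chr3:90603520-90603769 for S100a4, chr3:90612644-90612893 for S100a6 and chr2:13574061-13574310 for Vim on the plus strand. The window of Anxa2 is chr9:69453433-69453682 on the plus strand, and that of Anxa1 is chr19:20390672-20390921 on the minus strand. Capitals mark matches to the TATA box (TATAAA) and to the AP-1 site (TGANTCA), each searched on both strands.
S100a4: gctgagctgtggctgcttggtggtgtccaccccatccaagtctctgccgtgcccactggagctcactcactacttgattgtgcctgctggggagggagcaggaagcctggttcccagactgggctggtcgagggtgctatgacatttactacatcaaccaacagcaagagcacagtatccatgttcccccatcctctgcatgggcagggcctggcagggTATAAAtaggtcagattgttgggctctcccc
S100a6: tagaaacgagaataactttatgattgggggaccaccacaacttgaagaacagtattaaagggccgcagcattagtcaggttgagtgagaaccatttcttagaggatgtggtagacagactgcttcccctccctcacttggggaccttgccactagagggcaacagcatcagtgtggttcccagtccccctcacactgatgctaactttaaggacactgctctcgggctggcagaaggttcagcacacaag
Anxa1: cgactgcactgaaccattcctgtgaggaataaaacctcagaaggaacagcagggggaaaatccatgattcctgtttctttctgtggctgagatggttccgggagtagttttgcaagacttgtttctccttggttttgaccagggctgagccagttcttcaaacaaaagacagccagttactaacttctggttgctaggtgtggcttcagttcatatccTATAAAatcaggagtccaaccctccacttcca
Anxa2: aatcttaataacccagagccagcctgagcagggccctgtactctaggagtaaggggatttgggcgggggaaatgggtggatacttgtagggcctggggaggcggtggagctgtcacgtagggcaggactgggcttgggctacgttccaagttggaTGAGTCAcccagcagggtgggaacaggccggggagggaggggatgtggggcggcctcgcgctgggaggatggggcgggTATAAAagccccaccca
Vim: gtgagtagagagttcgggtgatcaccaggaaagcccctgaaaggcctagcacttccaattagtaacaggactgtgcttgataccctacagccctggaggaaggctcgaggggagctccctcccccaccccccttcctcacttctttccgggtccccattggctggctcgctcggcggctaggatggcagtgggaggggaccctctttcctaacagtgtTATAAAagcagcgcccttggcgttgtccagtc

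The TATA letters began 31, 32 and 32 bases before the start in S100a4, Anxa1 and Vim, and 17 bases before it in Anxa2. They were found in 4 of the 8 members that the promoter table holds, against 12.4% of the windows of the same length over all 32851 promoters. S100a6 held neither motif. The AP-1 letters stood in Anxa2, 95 bases before the start, and at 2 places in S100a11, so in 2 of 8 members against 6.75% of all windows. The antioxidant response element core (TGACNNNGC, in 10.2% of all windows) and the gamma-activated sequence (TTCNNNGAA, in 7.02%) were not found in these 8 windows. The GC box (GGGCGG, in 32.7%) was found in S100a11, Anxa2 and Lgals3. No match is a binding site by itself, and no factor was measured.

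The aged vehicle over young comparison sets cultures from aged mice beside cultures from young mice. The libraries also differ in the vehicle course, which is not stated for the young mice, and in markers of other blood cells. Age cannot be told apart from these. In this comparison 8 of the 10 genes were higher and none lower. Over all 13844 genes tested, 16.8% were higher and 6.80% lower. Members and lists were chosen with earlier results of these data known, so such counts describe these libraries and test nothing. At a 2-fold limit 5 members were higher (S100a6, Anxa1, S100a4, Lgals3 and Lgals1) and none lower, against 10.4% and 2.08% of all genes. Anxa1 passed the minimum only through the aged vehicle library here and could only be called higher. S100a10, Anxa5 and Vim were higher by between 1.5-fold and 2-fold. S100a11 and Anxa2 lay within 1.5-fold. The median log2 ratio of CPM + 1 over the 10 genes was 0.97, beside 0.03 over all genes tested. The 10 megakaryocyte and platelet markers and the 8 basophil and mast cell markers were all higher in aged vehicle as well, and their part in the members' levels was not tested.

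The aged fumarate over aged vehicle comparison addresses fumarate treatment of aged mice. There S100a4, S100a6 and Anxa1 were lower, against 11.8% of 13815 genes, and Anxa2 was higher, against 2.18%. The other 6 members lay within 1.5-fold, with Lgals1, S100a10 and Vim on the higher side and Lgals3 and Anxa5 on the lower. At a 2-fold limit none of the members were higher and 2 were lower (S100a4 and Anxa1), against 0.311% and 7.0% of all genes. The median log2 ratio was -0.17, beside -0.03 over all genes. These 10 megakaryocyte and platelet and 8 basophil and mast cell markers were all lower in aged fumarate than in aged vehicle. The 3 comparisons share libraries pairwise and so are not independent. In the aged fumarate over young comparison, 8 of the 10 genes were higher and none lower, against 9.46% and 7.11% of 13421 genes. At a 2-fold limit 7 were higher and none lower, against 4.79% and 2.45% of all genes. Anxa1, among these, passed the minimum only through the aged fumarate library and could only be called higher. The median log2 ratio of the members was 1.35, beside -0.002 over all genes. The 2 members within 1.5-fold there were S100a11 and Anxa5. All 10 megakaryocyte and platelet markers (median log2 ratio 2.68) and 7 of 8 basophil and mast cell markers (median over the 8 of 2.53) were higher in aged fumarate than in young too, and their part in the members' levels was not tested.

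**Figure D1:**
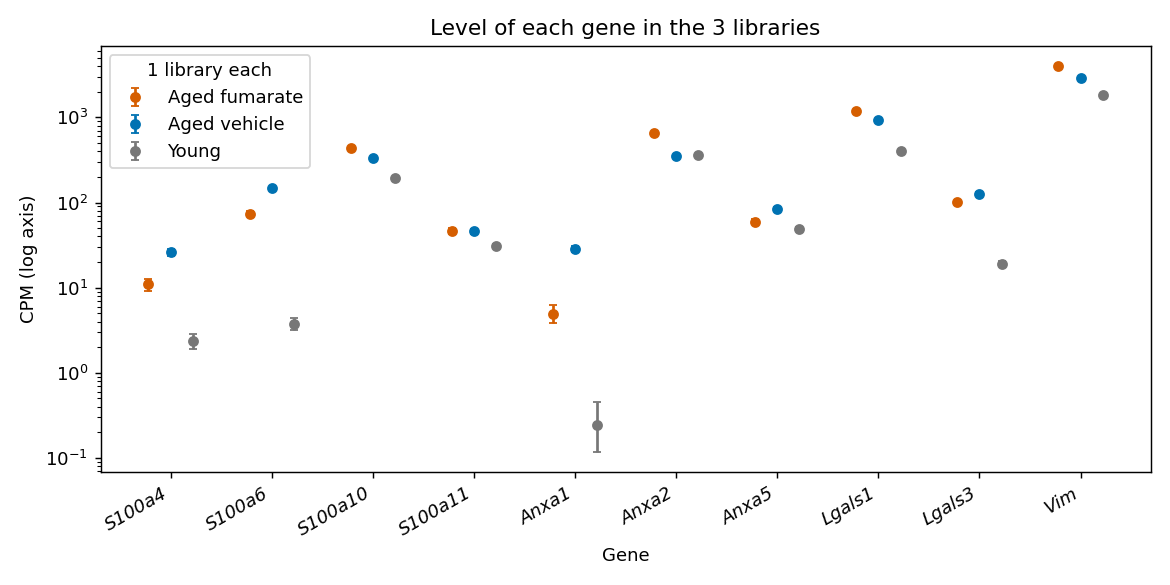
CPM of the 10 genes (log axis) in the aged fumarate, aged vehicle and young libraries, 1 point a library, with bars for 95% counting intervals. The young point is the lowest for every gene but Anxa2, and Anxa1 spans the widest range, at 4.91, 28.6 and 0.244 CPM.

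S100a6 encodes calcyclin, which binds calcium and zinc and has several annexins among its partners. It had 74.1 CPM in the aged fumarate, 146 CPM in the aged vehicle and 3.76 CPM in the young library. Both aged libraries stood far above the young one, and the aged vehicle library was the highest. The CPM ratio was 39.0 for aged vehicle over young (interval 33.1 to 46.2) and 19.7 for aged fumarate over young (16.6 to 23.5), while aged fumarate stood at 0.506 of aged vehicle (0.470 to 0.544). Among all genes tested the gene was at percentile 99.54 of the aged vehicle over young ratio and at percentile 99.87 of the aged fumarate over young ratio.

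S100a4, whose product binds the heavy chain of non-muscle myosin and is linked to cell motility, lies 6836 bases from S100a6 on chromosome 3. It had 10.9, 25.9 and 2.37 CPM in the aged fumarate, aged vehicle and young libraries, in the same order of libraries as S100a6. The ratio was 10.9 for aged vehicle over young (8.77 to 13.8) and 0.421 for aged fumarate over aged vehicle (0.348 to 0.507). Set against young, the aged fumarate library was 4.61-fold higher (3.55 to 6.01). Per kilobase of exon, the level of S100a6 was 2.90 times (interval 2.44 to 3.47) that of S100a4 in the aged fumarate library and 2.42 times (interval 2.19 to 2.68) in the aged vehicle library, but 0.678 times (interval 0.523 to 0.884) in the young library. By this measure S100a6 was the more abundant of the pair in both aged libraries and the less abundant in the young one. In plain CPM it was 1.59 times S100a4 in the young library (interval 1.22 to 2.07). The order there thus depends on the exon lengths used, which the intervals do not cover. The annotation places another gene, Gm42674, on the same strand over S100a4, and that gene has no row in the table.

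S100a10 encodes p11, an S100 protein that has lost calcium binding and holds annexin A2 at the plasma membrane. It had 430.9, 331 and 195 CPM in the aged fumarate, aged vehicle and young libraries, so the aged fumarate library was the highest. The ratio was 1.70 for aged vehicle over young (1.64 to 1.76), 1.30 for aged fumarate over aged vehicle (1.25 to 1.35) and 2.21 for aged fumarate over young (2.13 to 2.28). Its reads made up 71.7% of the CPM of the 9 listed S100 genes in the aged fumarate, 54.5% in the aged vehicle and 77.2% in the young library.

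S100a11, the annexin A1 partner, was at 46.2 CPM in the aged fumarate, 45.7 CPM in the aged vehicle and 31.0 CPM in the young library. The interval of the ratio between the aged libraries, 0.909 to 1.12, holds 1. Both were just under the 1.5-fold limit over young, at 1.49 for aged fumarate (1.35 to 1.64) and 1.48 for aged vehicle (1.35 to 1.61). With T cell marker scaling the log2 ratio of aged vehicle over young was 0.72, past the limit. Its level is uncertain, because the processed pseudogenes Gm12854 and Gm7665 match its transcript at 99.0% and 98.7% identity over 297 bases and are listed with reads of their own. Those rows together equalled 47.7%, 38.8% and 45.4% of the S100a11 value in the aged fumarate, aged vehicle and young libraries. With them added, the gene had 68.2, 63.4 and 45.0 CPM, and the ratio was 1.51 for aged fumarate and 1.41 for aged vehicle over young. None of the other 9 genes had a similar transcript of another gene listed in the table.

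**Figure D2:**
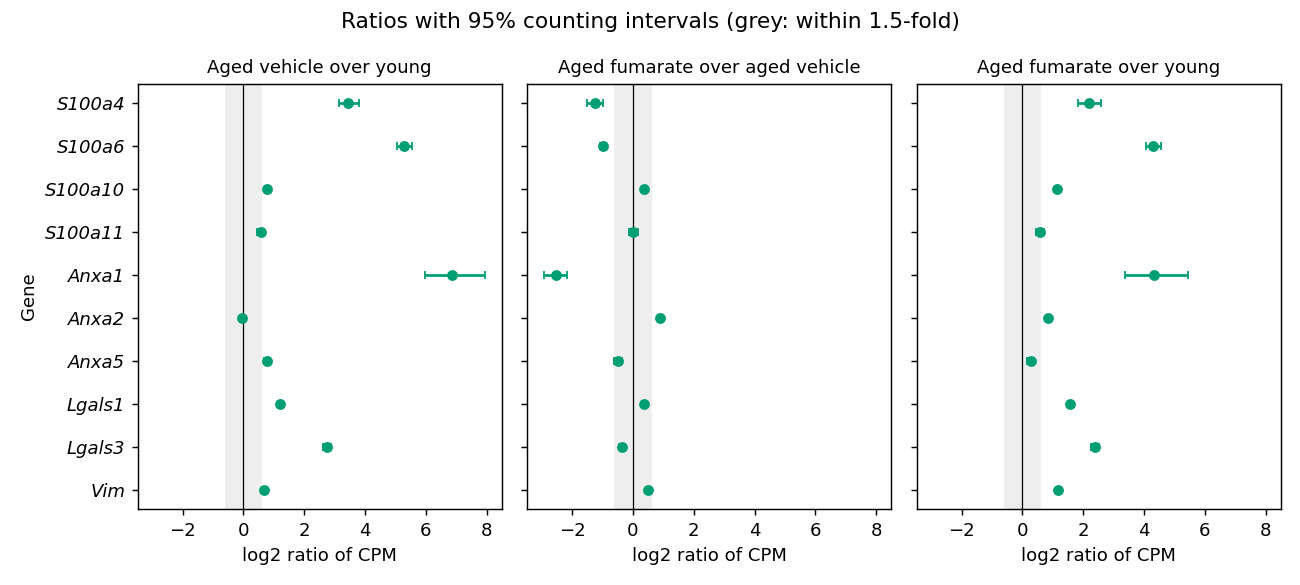
Log2 ratios of plain CPM for the 10 genes in the 3 comparisons, with bars for 95% counting intervals and a grey band for the range within 1.5-fold. In the middle panel S100a4, S100a6 and Anxa1 lie left of the band and Anxa2 right of it, and the comparisons share libraries pairwise.

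Anxa1 encodes annexin A1, a glucocorticoid-inducible membrane-binding protein that acts on formyl peptide receptors when secreted. It had 4.91 CPM (about 68 reads) in the aged fumarate, 28.6 CPM (493 reads) in the aged vehicle and 0.244 CPM (10 reads) in the young library. The aged vehicle library was the highest and the young library was nearly without the transcript. The ratio of aged vehicle over young was 117, with a wide interval of 63.1 to 246 that comes from the 10 young reads. Aged fumarate stood at 0.172 of aged vehicle (0.131 to 0.222) and was 20.1-fold above young (10.3 to 43.8). Of the 10 genes it had the lowest level per kilobase of exon in all 3 libraries. Per kilobase, the level of Anxa1 was 0.0187 times (interval 0.0143 to 0.0240) that of its partner S100a11 in the aged fumarate library, 0.110 times (interval 0.0978 to 0.123) in the aged vehicle library and 0.00138 times (interval 0.000662 to 0.00255) in the young library, with the reservation on S100a11 given above.

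Anxa2, which bridges membranes and actin and forms a tetramer with S100A10, had an order of libraries that no other member had. It had 648 CPM in the aged fumarate, 351 CPM in the aged vehicle and 360 CPM in the young library. The aged vehicle and young libraries differed by less than counting error, at a ratio of 0.976 with an interval that holds 1. The aged fumarate library was higher than both, 1.85-fold over aged vehicle (1.79 to 1.91) and 1.80-fold over young (1.75 to 1.85). That put Anxa2 at percentile 99.50 of all genes for aged fumarate over aged vehicle. With libraries scaled to the T cell markers its log2 ratio over aged vehicle was 0.58 instead of 0.88, just under the 1.5-fold limit. Per kilobase, the level of Anxa2 was 0.488 times (interval 0.473 to 0.505) that of its partner S100a10 in the aged fumarate library, 0.344 times (interval 0.332 to 0.357) in the aged vehicle library and 0.599 times (interval 0.582 to 0.615) in the young library. These intervals do not overlap, and the aged vehicle library had the least Anxa2 beside S100a10. An annotated gene on the opposite strand, Gm16144, overlaps Anxa2 exons and has no row in the table, and no source used here says whether reads were counted by strand.

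Anxa5, whose product binds phosphatidylserine and is widely used to stain dying cells, had 59.3, 83.3 and 49.2 CPM in the aged fumarate, aged vehicle and young libraries. The aged vehicle library was the highest, 1.69-fold over young (1.58 to 1.81). The aged fumarate library lay between, at 0.712 of aged vehicle (0.653 to 0.776) and 1.21 of young (1.11 to 1.31), both within 1.5-fold. With T cell marker scaling its log2 ratio of aged fumarate over aged vehicle, -0.48 as deposited, was -0.79, past the limit.

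Other annexins were read beside these 3. Of 9 other annexins looked for, 6 were listed. In aged vehicle over young, Anxa4 and Anxa9 were higher, against 16.8% of all genes, and 4 lay within 1.5-fold. The median log2 ratio was 0.43 beside 0.03 over all genes. Anxa6, an abundant annexin of lymphocytes, had 392, 315 and 336 CPM in the aged fumarate, aged vehicle and young libraries, within 1.5-fold in each comparison. Anxa4 had 14.9, 25.5 and 13.2 CPM. It was the only one of the 6 that was lower in aged fumarate than in aged vehicle, against 11.8% of all genes. Counting all 9 listed annexins, Anxa2 held 47.9% of their CPM in the aged fumarate, 33.5% in the aged vehicle and 38.2% in the young library.

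Lgals1 encodes galectin-1, a dimeric lectin that T cells make on activation and that can limit T cell survival and receptor signalling. It had 1185 CPM in the aged fumarate, 924 CPM in the aged vehicle and 405 CPM in the young library. Both aged libraries were more than 2-fold above the young one, and the aged fumarate library was the highest. The ratio was 2.28 for aged vehicle over young (2.23 to 2.33), 2.93 for aged fumarate over young (2.87 to 2.99) and 1.28 for aged fumarate over aged vehicle (1.26 to 1.31).

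Lgals3 encodes galectin-3, the chimera-type galectin with a long repeat domain that lets it form larger lattices. It had 100.1, 128 and 19.1 CPM in the aged fumarate, aged vehicle and young libraries. Both aged libraries were high and the young one low. The ratio was 6.70 for aged vehicle over young (6.17 to 7.28) and 5.25 for aged fumarate over young (4.81 to 5.74), and aged fumarate stood at 0.785 of aged vehicle (0.733 to 0.840). With T cell marker scaling the log2 ratio of aged fumarate over aged vehicle, -0.35 as deposited, was -0.65, past the limit. Per kilobase, the level of Lgals1 was 24.4 times (interval 23.1 to 25.8) that of Lgals3 in the aged fumarate library, 14.9 times (interval 14.2 to 15.6) in the aged vehicle library and 43.7 times (interval 40.7 to 47.0) in the young library. The proportion of galectin-3 to galectin-1 transcripts was thus highest in the aged vehicle library and lowest in the young one.

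Lgals9, an interferon-inducible galectin with tandem binding domains, had 55.4 CPM in the aged fumarate, 181 CPM in the aged vehicle and 95.8 CPM in the young library. It was lower in aged fumarate than in both others, at 0.306 of aged vehicle and 0.578 of young. Lgals8 had 10.97, 18.8 and 10.99 CPM in the aged fumarate, aged vehicle and young libraries. Of 7 other galectins looked for, 4 were listed. In aged vehicle over young 2 of these were higher (Lgals8 and Lgals9) and 1 lower (Lgals7, at 1.16 and 2.34 CPM). Over all genes tested 16.8% were higher and 6.80% lower. Lgals1 made up 87.4%, 73.5% and 75.3% of the CPM of the 6 listed galectin genes in the aged fumarate, aged vehicle and young libraries.

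Vim encodes vimentin, the type III intermediate filament that frames resting lymphocytes and is rearranged on activation. It had 4055 CPM in the aged fumarate, 2906 CPM in the aged vehicle and 1814 CPM in the young library. The 3 libraries were well apart, with the aged fumarate library the highest. The ratio was 1.60 for aged vehicle over young (1.58 to 1.62), 1.40 for aged fumarate over aged vehicle (1.38 to 1.41) and 2.24 for aged fumarate over young (2.21 to 2.26). With upper quartile scaling the log2 ratio of aged vehicle over young, 0.68 as deposited, was 0.58, just under the 1.5-fold limit.

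Among 15 other intermediate filament and linker genes looked for, 4 of the 10 tested were higher and none lower in aged vehicle over young. Over all genes tested 16.8% were higher and 6.80% lower. The median log2 ratio of the list was 0.25. Lmna, which encodes the nuclear lamins A and C, had 249.5, 264 and 52.0 CPM in the aged fumarate, aged vehicle and young libraries, so it was 5.08-fold higher in aged vehicle and 4.80-fold higher in aged fumarate than in young. Plec, the linker plectin that ties vimentin to other filaments, had 347, 296 and 208 CPM in the aged fumarate, aged vehicle and young libraries. In aged fumarate over aged vehicle none of the 9 tested were higher, and Synm and Dst were lower, against 2.18% and 11.8% of all genes. Synm had 0.361, 2.14 and 0.0732 CPM in the aged fumarate, aged vehicle and young libraries. It passed the minimum only through the aged vehicle library. Synm was also one of the 4 higher in aged vehicle over young, and the minimum fixed the direction of both calls. Of 26 actin cytoskeleton genes, 24 were tested. In aged vehicle over young 5 were higher and 3 lower, against 16.8% and 6.80% of all genes. In aged fumarate over aged vehicle 3 were higher and 4 lower, against 2.18% and 11.8%. Vcl, the adhesion protein vinculin, had 17.3, 69.0 and 10.8 CPM in the aged fumarate, aged vehicle and young libraries.

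Levels can be set side by side only per length, and the lengths used are the union of annotated exons in GENCODE M21. The order of the genes depends on that choice of length, which the counting intervals do not cover. In plain CPM, Vim stood above Lgals1 and Anxa2 above S100a10 in every library. The family shares given above are of plain CPM and are not scaled by length. On CPM per kilobase, Lgals1, Vim and S100a10 were the 3 highest members in every library, at 1313, 855 and 356 in the aged fumarate, 1023, 613 and 273 in the aged vehicle and 448, 382 and 161 in the young library. In the young library the order went on with Anxa2, S100a11, Anxa5, Lgals3, S100a4, S100a6 and Anxa1, and no neighbours had overlapping counting intervals. S100a6 had rank 9 of the 10 there at 2.75, but rank 6 in the aged fumarate library at 54.2 and rank 4 in the aged vehicle library at 107 CPM per kilobase. Its level in the aged fumarate library could not be told from that of Lgals3, at 53.9. In the aged vehicle library the intervals of Anxa2 and S100a11 overlapped, as did those of Anxa5 and S100a4.

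By the order of the libraries the 10 genes fell into 3 patterns. S100a4, S100a6, Anxa1, Anxa5 and Lgals3 were highest in aged vehicle, then aged fumarate, then young, an order that 26.5% of the 13750 genes with a mean of at least 1 CPM over the 3 libraries also had. S100a10, S100a11, Lgals1 and Vim were highest in aged fumarate, then aged vehicle, then young (15.0% of all genes), although the S100a11 values of the aged libraries were not apart. Anxa2 alone had the order aged fumarate, young, aged vehicle (9.29%), and its last step was within counting error. The young library was thus the lowest for 9 of the 10 members, against 41.5% of all genes.

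**Figure D3:**
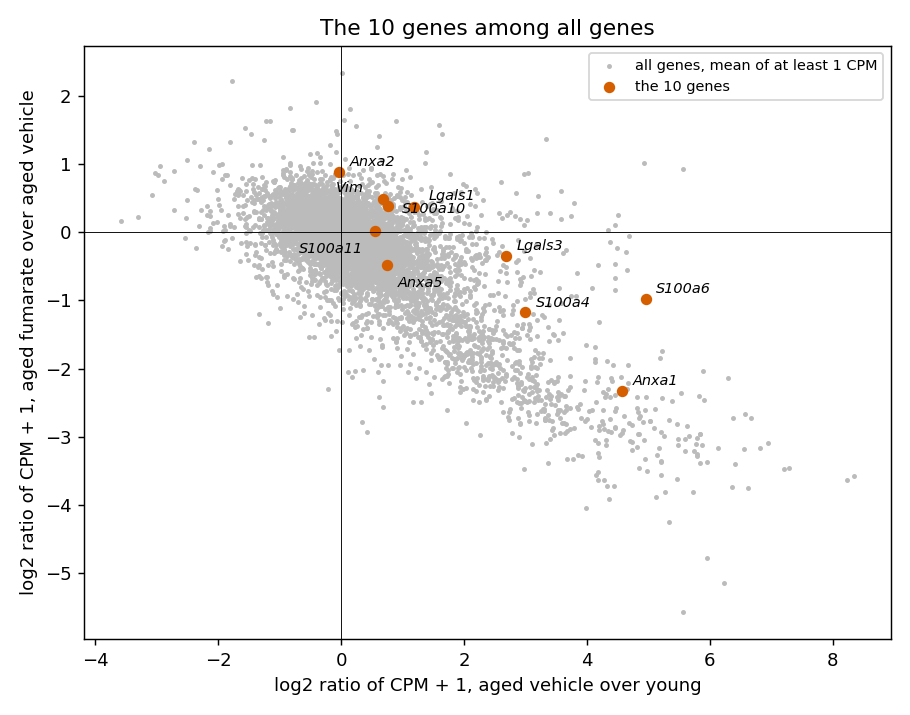
Log2 ratio of CPM + 1 for aged vehicle over young (horizontal) and aged fumarate over aged vehicle (vertical), for all genes with a mean of at least 1 CPM (grey) and the 10 genes (orange). Both axes use the aged vehicle library, so their slope is no result. S100a6 lies at 4.95 and -0.97, Anxa1 at 4.57 and -2.32, and Anxa2 at -0.04 and 0.88.

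The S100 genes lie in 2 blocks of mouse chromosome 3 (build mm10). In the first block, 7 S100 genes are listed, from S100a1 (90511034 to 90514392) to S100a9 (90692632 to 90695721). S100a4 is at 90603771 to 90606045 and S100a6 at 90612882 to 90624181, both on the plus strand. S100a1, a calcium sensor best known from muscle, had 9.53, 21.0 and 3.34 CPM in the aged fumarate, aged vehicle and young libraries, the same order as S100a4 and S100a6. S100a13, which takes part in export of proteins that lack a signal sequence, had 28.7, 32.8 and 17.0 CPM in the aged fumarate, aged vehicle and young libraries. Both were at least 1.5-fold higher in aged vehicle and in aged fumarate than in young. S100a3 was listed at 0.505, 1.10 and 0.0732 CPM, too low to be compared.

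The next listed genes beyond S100a1 were level. Chtop had 168, 174 and 179 CPM, Snapin 24.1, 25.4 and 25.1 CPM and Ilf2 115, 114 and 123 CPM in the aged fumarate, aged vehicle and young libraries. None of these 3 genes was near the 1.5-fold limit in any comparison. S100a8 and S100a9, the calprotectin genes of neutrophils and monocytes, were at 1.45 and 1.62 CPM in the aged vehicle library and listed at 0 in the aged fumarate and young libraries, where 0 allows up to 0.217 and 0.0732 CPM. The second block lies 2.82 megabases further on and holds S100a11 (93520488 to 93526287) and S100a10 (93555080 to 93564643). The other members are Anxa5 on chromosome 3 (36448923 to 36475894), Anxa2 on chromosome 9 (69453620 to 69491795) and Anxa1 on chromosome 19 (20373428 to 20390944). Lgals1 is on chromosome 15 (78926725 to 78930465), Lgals3 on chromosome 14 (47367751 to 47386160) and Vim on chromosome 2 (13573927 to 13582826).

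**Figure D4:**
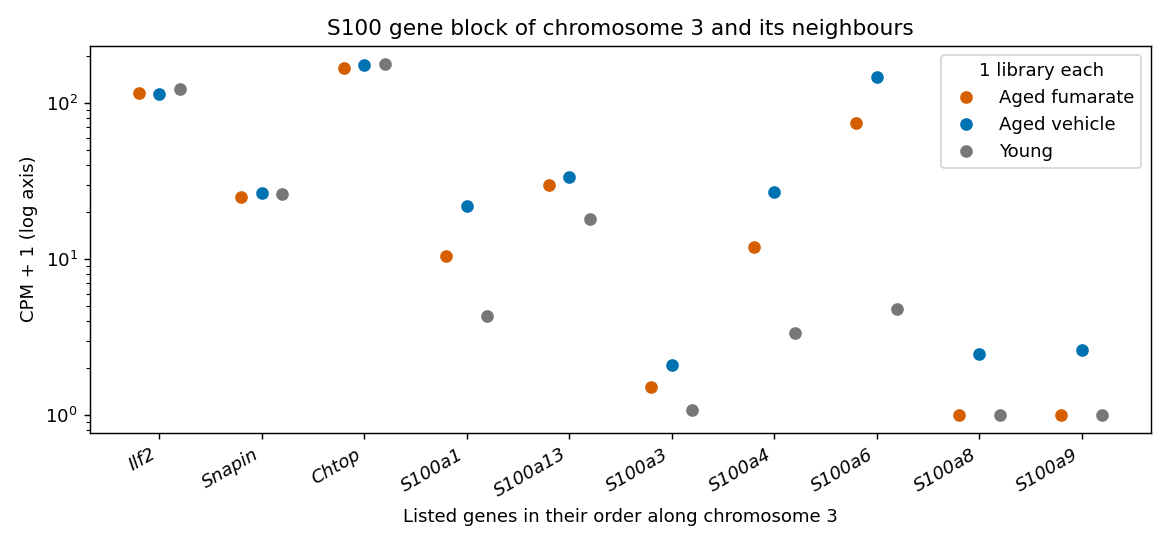
CPM + 1 (log axis) of the listed genes of the first S100 block in their order along chromosome 3, 1 point a library. Ilf2, Snapin and Chtop are level across the libraries, while S100a4 and S100a6 stand at 10.9, 25.9 and 2.37 CPM and at 74.1, 146 and 3.76 CPM in the aged fumarate, aged vehicle and young libraries.

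Partners of these proteins were read from a list. Of 18 partner and receptor genes of S100 proteins and annexins, 13 were listed and 11 tested in aged vehicle over young. There 3 were higher and none lower, against 16.8% and 6.80% of all genes, with a median log2 ratio of 0.33. Tlr4, one of the 3, passed the minimum only through the aged vehicle library and could only be called higher. Ahnak, a giant scaffold bound by the S100A10 and annexin A2 complex, had 565, 456 and 316 CPM in the aged fumarate, aged vehicle and young libraries, the order of S100a10. It was 1.79-fold higher in aged fumarate than in young. Tlr4, a receptor that can bind some S100 proteins, was at 1.01, 2.72 and 0.415 CPM in the aged fumarate, aged vehicle and young libraries, and the scavenger receptor gene Cd36 at 8.23, 9.79 and 2.32 CPM. Fpr2, a receptor of secreted annexin A1, was at 0.0722 CPM in the aged fumarate and 0.985 CPM in the aged vehicle library and listed at 0 in the young library. In aged fumarate over aged vehicle, none of the 12 tested were higher and Tlr4 was lower, against 2.18% and 11.8% of all genes.

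Enzymes that make or mask the sugars galectins bind were read with other galectin ligands. Of 16 galectin ligand and glycan branching genes, 15 were tested. In aged vehicle over young 7 were higher and 1 lower, against 16.8% and 6.80% of all genes, with a median log2 ratio of 0.57. The lower gene was St6gal1, which caps galactose with a sialic acid that blocks galectin-1 binding, at 27.9 CPM in the aged fumarate, 14.8 CPM in the aged vehicle and 129 CPM in the young library. Gcnt1, which builds the branched core of O-glycans, had 15.7, 41.7 and 4.51 CPM in the aged fumarate, aged vehicle and young libraries. Mgat5, whose N-glycan branches carry galectin-3 ligands, had 99.8, 128 and 34.6 CPM in the aged fumarate, aged vehicle and young libraries.

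With fumarate 5 of the 15 were lower than in aged vehicle and 1 was higher, at a median log2 ratio of -0.26. Over all genes tested 11.8% were lower and 2.18% higher. The higher one was St6gal1, at 1.88-fold. The lower ones included Gcnt1 and Lgals3bp, a secreted galectin-3 ligand at 84.1, 211 and 69.0 CPM in the aged fumarate, aged vehicle and young libraries. Havcr2, an inhibitory receptor that binds galectin-9, had 25.2, 49.2 and 2.56 CPM in the aged fumarate, aged vehicle and young libraries.

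Effector and memory genes were read beside the members. Of 25 genes, 14 were higher and none lower in aged vehicle over young (median log2 ratio 0.64), against 16.8% and 6.80% of all genes. Likewise 14 were higher and none lower in aged fumarate over young (median 0.70), against 9.46% and 7.11%. Ccr2, a chemokine receptor of effector cells, had 29.8, 25.1 and 0.957 CPM in the aged fumarate, aged vehicle and young libraries, and Prdm1, a transcription factor of effector cells, 17.5, 23.9 and 2.46 CPM. In aged fumarate over aged vehicle none of the 25 were higher and Crip2, Itga4 and Klf2 were lower, at a median of 0.05. Over all genes tested 2.18% were higher and 11.8% lower there, so the lower count was near the share of all genes. The lists are not separate: Ahnak is also in the partner list, Cd44 and Itgb1 are also in the galectin ligand list, and S100a8 and S100a9 are in both the S100 and the neutrophil lists. Naive T cell genes had 6 of 15 lower and 2 higher in aged vehicle over young (median -0.48), against 6.80% and 16.8% of all genes. The higher count was near the share of all genes. The same list had 4 higher and 2 lower in aged fumarate over aged vehicle (median 0.40), against 2.18% and 11.8%. There the lower count was near the share of all genes. In aged fumarate over young 5 were higher and 6 lower (median -0.38), against 9.46% and 7.11%. Nsg2 was at 6.06, 2.61 and 26.9 CPM and Dapl1 at 32.2, 22.9 and 135 CPM in the aged fumarate, aged vehicle and young libraries. S1pr1, a receptor for exit from lymphoid tissue, went the other way, at 71.9, 46.3 and 18.3 CPM.

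The genes nearest to 3 members by pattern were sought among 7065 protein-coding genes with a mean of at least 20 CPM, by Euclidean distance over the pair of log2 ratios that the 3 libraries give. Nearest to S100a6 were Mycn at a distance of 0.514, Ccl5 at 0.52 and Il21 at 0.579. Ccl5, a chemokine of effector cells, had 192, 282 and 10.2 CPM in the aged fumarate, aged vehicle and young libraries. Lgals1 had Igf2r (0.0248), Abcb1a (0.0436) and Gpr55 (0.0598) nearest to it. Igf2r, a sorting receptor of lysosomal enzymes, had 476, 369.9 and 165 CPM in the aged fumarate, aged vehicle and young libraries. Nearest to Anxa2 were Eomes (0.137), Hopx (0.152) and Abcb9 (0.223). Eomes, a transcription factor of cytotoxic and memory cells, had 47.4, 26.9 and 29.7 CPM and Hopx 56.2, 30.9 and 28.5 CPM in the aged fumarate, aged vehicle and young libraries. With 3 libraries many genes can lie close by this measure.

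Markers of several other cell types were lower in aged fumarate than in aged vehicle, though not in every list. The median log2 ratio there was 0.08 over the dendritic cell and -0.02 over the B cell markers tested. In aged fumarate over aged vehicle the median log2 ratio was -2.39 over the megakaryocyte and platelet markers and -2.36 over the basophil and mast cell markers, beside -0.97 for S100a6, -1.18 for S100a4 and -2.32 for Anxa1. Of the other members, Anxa5 and Lgals3 were at -0.48 and -0.35 and S100a11 at 0.01. Lgals1, S100a10, Vim and Anxa2 were at 0.36, 0.38, 0.48 and 0.88. The basophil and mast cell list summed to 79.8, 444 and 5.34 CPM in the aged fumarate, aged vehicle and young libraries, and the 8 erythroid markers to 12.3, 177 and 3.34 CPM. Of 12 macrophage and monocyte markers 11 were listed, with sums of 8.01, 56.6 and 3.83 CPM in the aged fumarate, aged vehicle and young libraries. Csf1r and C1qb were listed at 0 in the aged fumarate and young libraries, and Adgre1 in the aged fumarate library, while the highest of the list in the aged vehicle library was at 13.4 CPM.

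Of 9 neutrophil markers 5 were listed, with a sum of 0.722, 9.96 and 0.0488 CPM in the aged fumarate, aged vehicle and young libraries. S100a8, S100a9, Ngp and Elane were at 0 in the aged fumarate and young libraries. Natural killer cell markers (5 of 7 listed) summed to 39.0, 52.6 and 1.54 CPM, stromal and endothelial markers (6 of 10) to 60.7, 115 and 30.5 CPM, dendritic cell markers (4 of 7) to 20.6, 21.5 and 7.98 CPM and the 8 B cell markers to 7.58, 10.2 and 5.69 CPM in the aged fumarate, aged vehicle and young libraries. The first 2 of these lists rest on few genes. In that order of libraries Gzma alone had 31.0, 30.2 and 0.537 CPM of the natural killer sum. Of the stromal and endothelial sum, Lum had 46.5, 55.8 and 3.49 CPM and Pecam1 12.7, 51.9 and 26.4 CPM. Each of the 9 lists of other cells had a lower sum in the aged fumarate than in the aged vehicle library, though the dendritic sums were close. The part of any of these cells in the levels of the 10 genes was not tested.

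**Figure D5:**
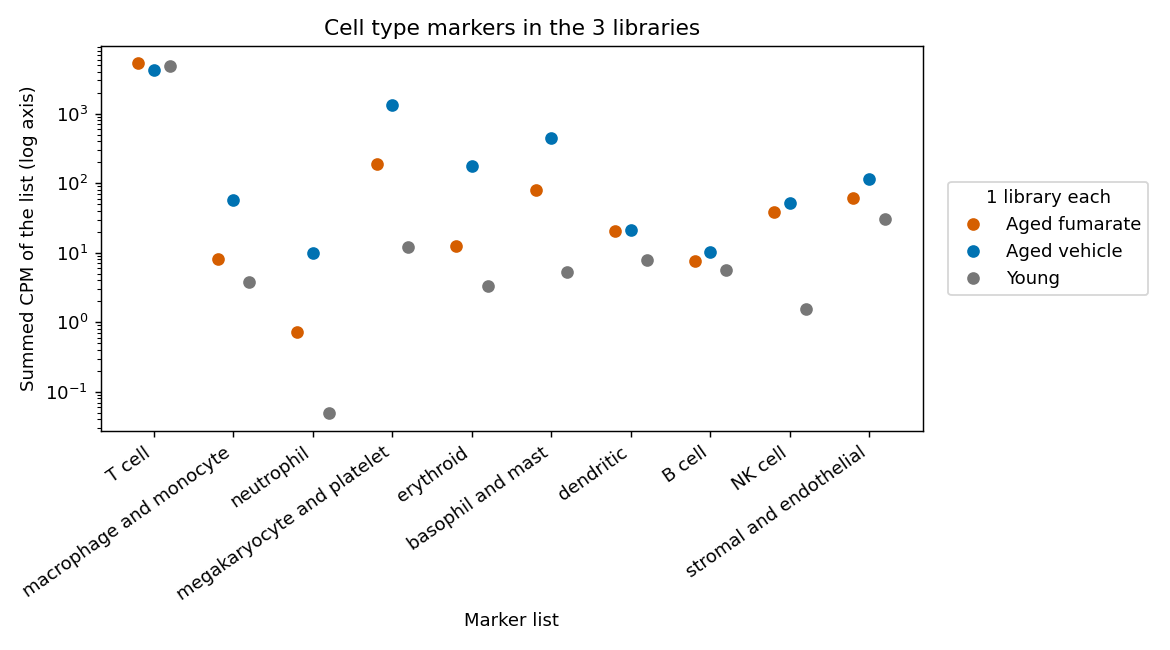
Summed CPM of each marker list (log axis) in the aged fumarate, aged vehicle and young libraries, 1 point a library. The T cell list stands at 5277, 4262 and 4818 CPM and the megakaryocyte and platelet list at 190.1, 1344 and 12.1 CPM in that order.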

How the data were processed

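RNA of cultured spleen T cells gave 3 polyA libraries with a SMARTER kit, per the labels' protocols. The submitters' processing notes name STAR, Partek and mm10. No source used here gives their versions or says whether strand was used in counting. The deposited table is named raw counts, but the values the authors deposited are CPM: each column sums to 1000000. Low values are spaced by 0.0722, 0.0579 and 0.0244 CPM in the aged fumarate, aged vehicle and young libraries, taken as 1 read. Within a tolerance of 0.02 reads, 68.1%, 65.6% and 57.2% of values were whole, so reads are estimates and no count model was run. The lowest sum for a listed gene was 10 estimated reads. Values under 1e-06 CPM were taken as 0, and a 0 allows 3 reads.

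From these values log2 ratios of CPM + 1 were computed for the 3 pairs of libraries, with a 1.5-fold limit and a minimum mean of 1 CPM. Intervals are exact at 95% (Poisson for levels, Clopper-Pearson for ratios) and cover counting error only. Groups follow the sample titles. The members, lists and tests were chosen with earlier results of these data known. Named list genes are among the 4 with the largest ratio per list and comparison, and not every gene the rule allows is named. Exceptions, chosen after their values were seen, are Fpr2, the neighbours and S100 genes on chromosome 3, the 2 pseudogenes, markers named because they were listed at 0, and genes named because lists share them. Gene ends are moved back by 1 base, after which all 10 positions equal GENCODE M21. Similar transcripts were sought with blastn 2.17.0 at 90% identity over 200 bases. The scripts were checked on simulated reads. Computation used numpy 2.4.6 under Python 3.11.15, with scipy 1.17.1, pandas 2.3.3 and, for figures, matplotlib 3.10.9. Alternatives covered scaling, added constant, minimum, fold limit, pseudogenes and depth.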

Additional observations from a re-analysis of the deposited data

How the results depend on the processing

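The counts of members called were recomputed under 12 alternatives. They stayed within 1.5 times the reported count except under 2 of these. Scaled to the summed T cell markers, which shifts all log2 ratios by -0.31 for aged fumarate over aged vehicle and by 0.18 for aged vehicle over young, 0 members in place of 1 were higher and 5 in place of 3 lower in aged fumarate over aged vehicle. The added ones were Anxa5 and Lgals3. Under that scaling the median log2 ratio over all genes tested was -0.32 for aged fumarate over aged vehicle. The shares of all genes called were not recomputed with it, so the changed counts are no result about the members. That scaling leans on Thy1, the largest of the T cell markers, at 1453 CPM in the aged fumarate and 988 CPM in the aged vehicle library. Thy1 was itself 1.47-fold higher with fumarate, and no scaling without it was run. With a 2-fold limit, 5 members in place of 8 were higher in aged vehicle over young and 0 in place of 1 were higher in aged fumarate over aged vehicle. No called ratio of a single member changed direction under the alternatives that gave it a value. That was all 12, except for S100a4 and Anxa1 in aged fumarate over young with 11 each: a minimum mean of 10 CPM leaves both out, and 6 members in place of 8 were then higher. Of the ratios within 1.5-fold, Anxa2 in aged vehicle over young (log2 -0.13 to 0.14) and S100a11 in aged fumarate over aged vehicle (-0.29 to 0.10) changed sign. The ratio that moved most was that of Anxa1 in aged vehicle over young, with a log2 value between 2.68 (5 CPM added) and 6.38 (0.1 CPM added), on 10 reads in the young library. Adding the reads of similar pseudogenes was chosen after seeing the data, since the table has no pseudogene row named after a member and the planned form could not be run. No paired analysis was possible because each group has 1 library, and for the same reason no replicate could be left out.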
